A study of Mus musculus with 6 samples.

Results

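The genes described here are 9 receptor chains through which growth factors act on blood-forming cells, taken by name from the 23746 gene loci measured: Csf3r, Csf1r, Csf2ra, Csf2rb, Csf2rb2, Il3ra, Kit, Flt3 and Epor. They were chosen by name, with earlier results of these data known. RNA was sequenced from bone marrow of C57BL/6 mice aged 12 weeks that were wild type (WT), Diap1 +/- (Het) or Diap1 -/- (KO). Diap1, listed today as Diaph1, codes for a formin, a protein that assembles actin filaments. For each genotype the marrow of 4 mice went into a single pool, Gr1+Mac1+ myeloid cells were pulled out with magnetic beads, and the cells left over were depleted to Lin- progenitors, so both fractions of a pool came from the same animals. This gave 6 libraries, with 1 for each genotype and fraction. How the Diap1 allele was made is not given in the sources used here.

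Growth factor receptors decide which hormone-like proteins a blood cell can answer to. Csf3r, Csf2ra, Csf2rb, Csf2rb2, Il3ra and Epor are cytokine receptors, which have no enzyme of their own and signal through bound Janus kinases to STAT transcription factors, whereas Csf1r, Kit and Flt3 are receptor tyrosine kinases. In marrow, Kit and Flt3 are best known from stem and progenitor cells, Epor from erythroid precursors, Csf3r from neutrophils and Csf1r from monocytes and macrophages.

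Levels are FPKM, fragments per unit of transcript length and of sequencing depth, and each comes with the authors' 95% interval. The interval is read here as counting error and does not cover the spread between mice. The libraries held an implied 8630000 to 11600000 fragments, and 10795 to 11315 genes reached an FPKM of 1. Values listed in a row for a fraction are in the order WT, Het, KO throughout. Diap1 had an FPKM of 36.0, 24.2 and 6.07 in Lin- cells and of 57.1, 34.1 and 4.07 in Gr1+Mac1+ cells, and was thus lower with each copy lost, as labelled. Csf1r lies on the same chromosome as Diap1 (chromosome 18, 61105572 to 61131139, plus strand, mm10). The Het Lin- library stood apart from the other Lin- libraries. The summed FPKM of 13 neutrophil markers was 8024 there, against 65.7 (WT) and 79.4 (KO) in the other Lin- libraries. In the Gr1+Mac1+ fraction the sum was 135900 to 164200. A set of 13 neutrophil markers reached an FPKM of 5 there or in WT Lin- cells. It differs from the summed set, as it holds Itgam and leaves out Fpr1. Of these, 12 were past the size rule defined below and higher than in WT, beside 1.7% of all 8369 genes. Differences between fractions are given with and without the Het pool where leaving it out moved them by over 1.5 times, and the counts of called genes without it are given with the gene lists. The part of neutrophil RNA in these results was not tested. Red cell RNA was present in both fractions: 15 markers summed to an FPKM of 4539, 4508 and 5487 in Lin- and 5191, 4608 and 3029 in Gr1+Mac1+ cells, where Hbb-b1 made up most of the sum. The 12 stem and early progenitor markers summed to 79.6, 83.2 and 88.1 in Lin- and 154.7, 141.3 and 161.5 in Gr1+Mac1+ cells, so this sum was not higher in the fraction labelled as progenitors. In bulk samples such as these, fewer cells of a type and less RNA per cell cannot be told apart.

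Kit and Epor made up most of the receptor RNA in Lin- cells, and Csf3r was the leading receptor in Gr1+Mac1+ cells. Of the summed FPKM of the 9 receptors in WT Lin- cells, Kit held 43.5% and Epor 40.1%, and Flt3 came next with 4.70%. The order was different in WT Gr1+Mac1+ cells, where Csf3r held 43.7%, Csf2ra 18.5%, Csf1r 13.2% and Csf2rb 12.2%. In Lin- cells of WT and Het the intervals of Kit and Epor overlapped, so their order is not set, and in KO they were apart with Kit above. Csf2ra, Csf1r, Csf3r, Il3ra and Csf2rb followed each other in WT Lin- cells with overlapping intervals between neighbours. In all 3 Gr1+Mac1+ libraries the order Csf3r, Csf2ra, Csf1r, Csf2rb, Csf2rb2 had intervals apart at each step, and Kit and Il3ra overlapped.

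**Figure D1:**
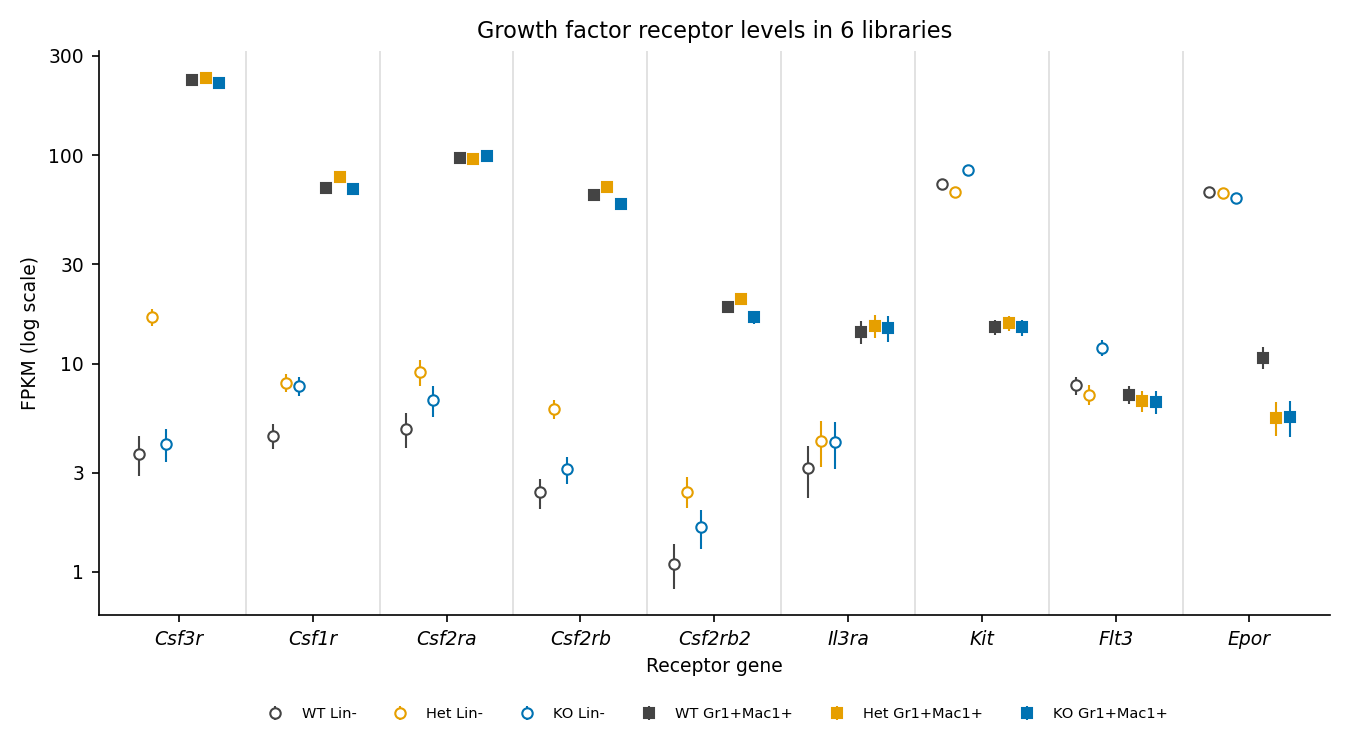
FPKM of each receptor gene (log axis) in the 6 libraries, with open circles for Lin- and filled squares for Gr1+Mac1+ cells, coloured by genotype. Bars are the authors' 95% intervals, read here as counting error, and do not cover the spread between mice. Csf3r runs from 3.69 in WT Lin- to 234 in Het Gr1+Mac1+ cells, and Flt3 keeps within 6.58 to 11.9.

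**Figure D2:**
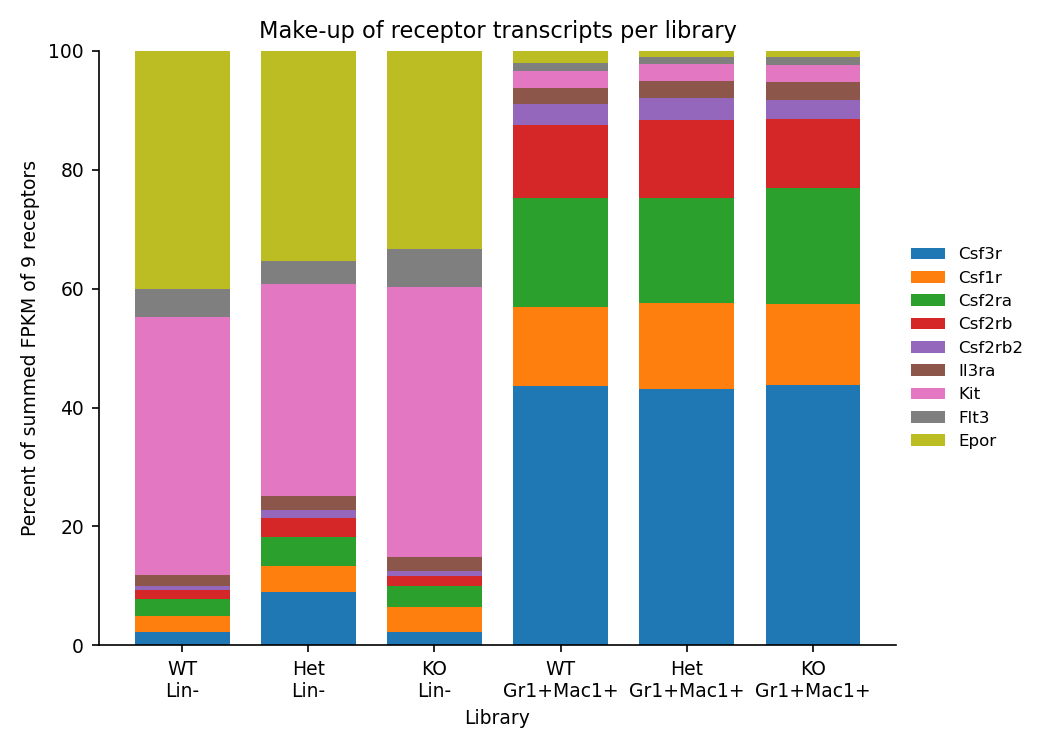
Share of each receptor in the summed FPKM of the 9 receptors, in percent, for each library. Kit and Epor fill most of the Lin- bars, and the Csf3r share of the Het Lin- bar is 8.97% against 2.21% in both other Lin- bars.

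Csf3r, the receptor for granulocyte colony-stimulating factor (G-CSF), lies on chromosome 4, 126024659 to 126044975, plus strand, in mm10, with 17 exons in its longest coding transcript. Its FPKM was 3.69, 16.7 and 4.11 in Lin- cells and 230, 234 and 222 in Gr1+Mac1+ cells. The fractions did not overlap, as for 31.7% of all genes tested with the higher values in Gr1+Mac1+ cells and 54.1% with the higher values in Lin- cells, and among the Lin- libraries Het alone was high. Gr1+Mac1+ cells were above Lin- cells by 4.93 on the log2(FPKM + 1) scale (SE 0.41, 3 pools, limma with Benjamini-Hochberg adjustment, adjusted p = 0.000424), or 30.6-fold. That scale understates the change of low genes. Without the Het pool the difference was 5.54, or 46.4-fold (adjusted p = 2.37e-05). The promoter is shown because Csf3r carries the widest fraction difference of the 9 genes. It holds GAGGAAG, the purine-rich core that the myeloid factor PU.1 can bind, from 86 to 80 bases before the start, in capitals below. The stretch is chr4:126024409-126024658, plus strand, and ends at the base before the start (RefSeq, GRCm38.p6).
Csf3r: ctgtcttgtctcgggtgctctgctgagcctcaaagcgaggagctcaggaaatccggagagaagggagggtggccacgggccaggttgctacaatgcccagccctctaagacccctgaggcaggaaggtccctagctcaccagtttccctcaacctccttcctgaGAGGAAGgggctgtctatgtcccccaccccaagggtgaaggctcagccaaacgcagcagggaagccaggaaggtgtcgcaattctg

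Csf1r, the receptor for macrophage colony-stimulating factor and interleukin-34, has 21 exons. Its level was 4.50, 8.10 and 7.80 FPKM in Lin- cells and 69.5, 78.3 and 69.3 in Gr1+Mac1+ cells. The fractions did not overlap, and WT was the lowest of the Lin- libraries. The difference between fractions was 3.27 (SE 0.15, limma adjusted p = 0.00012), or 9.62-fold. Per transcript length, Csf3r stood at 3.32 times Csf1r in WT Gr1+Mac1+ cells (3.19 to 3.44 within 2 counting SE). In WT Lin- cells the ratio was 0.820 (0.636 to 1.06), which does not separate the levels of the pair. It was 2.06 (1.80 to 2.37) in Het and 0.527 (0.427 to 0.651) in KO Lin- cells, so Csf3r was the higher of the pair in Het and the lower in KO.

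Csf2ra codes for the chain that binds GM-CSF, the factor for granulocytes and macrophages. It lies on chromosome 19, 61224402 to 61228418, minus strand, with 12 exons. Its FPKM was 4.87, 9.11 and 6.67 in Lin- cells and 97.4, 95.8 and 99.2 in Gr1+Mac1+ cells. The Gr1+Mac1+ libraries were close to each other and all above the Lin- libraries, of which Het was the highest. The difference was 3.68 (SE 0.17, limma adjusted p = 0.000116), or 12.8-fold. Its promoter is shown because it holds GAGGAAG more than once before the start, from 14 to 8 and from 8 to 2 bases before it, with 1 base shared. Csf2rb2 also holds the motif more than once, on the strand opposite to the gene. Its matches run from 168 to 162 bases before and from 28 to 34 bases after the start. The stretch is chr19:61228419-61228668, minus strand (RefSeq, GRCm38.p6), with the motifs in capitals.
Csf2ra: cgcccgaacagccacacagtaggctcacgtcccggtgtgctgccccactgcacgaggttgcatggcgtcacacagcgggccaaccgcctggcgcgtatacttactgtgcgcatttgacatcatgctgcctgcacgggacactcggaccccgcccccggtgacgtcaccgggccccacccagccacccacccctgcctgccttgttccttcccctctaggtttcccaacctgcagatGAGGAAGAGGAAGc

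Il3ra, the chain that binds interleukin-3, lies on chromosome 14, 14346495 to 14355490, plus strand, with 11 exons. It had an FPKM of 3.15, 4.24 and 4.201 in Lin- cells and of 14.2, 15.2 and 14.9 in Gr1+Mac1+ cells. The fractions did not overlap, and the intervals of the 3 genotypes overlapped within each fraction. The difference was 1.70 (SE 0.09, limma adjusted p = 0.00014), or 3.26-fold. The antisense gene Gm48860 overlaps the Il3ra locus, and since the use of strand is not given in the sources used here, reads of the pair cannot be told apart. In Lin- cells Csf2ra stood at 1.55 (1.10 to 2.17 within 2 counting SE), 2.15 and 1.59 times Il3ra. Its ratios in Gr1+Mac1+ cells were 6.87 (6.03 to 7.83), 6.29 and 6.67. The balance of these ligand-binding chains was thus further to the GM-CSF side in every Gr1+Mac1+ library than in any Lin- library.

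Csf2rb is the common beta chain, which pairs with the alpha chains for GM-CSF, interleukin-3 and interleukin-5, and Csf2rb2 is a beta chain of mice that pairs with Il3ra. Csf2rb lies on chromosome 15, 78325990 to 78351001, plus strand, with 15 exons, and Csf2rb2 at 78282510 to 78305603, minus strand, with 14 exons, 20386 bases away. Over 2628 aligned coding bases the genes were 95.2% identical, with a longest identical run of 242 bases. Of the words of 50 bases in the Csf2rb2 transcript, 19.0% also occur in that of Csf2rb, and no other pair of the 9 receptors shares any such word. The levels of both genes are therefore uncertain, because fragments from shared stretches can be split between them. The window below, coding bases 12 to 71 of each gene (GENCODE M21), shows how little separates them; its 2 differing bases, in capitals, are the median number over such windows. For Csf2rb it is chr15:78335218-78335277, plus strand, and for Csf2rb2 chr15:78298159-78298218, minus strand.
Csf2rb: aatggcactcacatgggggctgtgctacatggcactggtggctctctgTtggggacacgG
Csf2rb2: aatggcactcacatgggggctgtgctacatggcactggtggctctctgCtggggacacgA

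Csf2rb had an FPKM of 2.41, 6.09 and 3.11 in Lin- cells and of 64.5, 70.8 and 58.6 in Gr1+Mac1+ cells. Csf2rb2 had 1.10, 2.43 and 1.64 in Lin- cells and 18.8, 20.4 and 16.7 in Gr1+Mac1+ cells. In both genes the fractions did not overlap, Het was highest in each fraction, and KO lay above WT in Lin- and below WT in Gr1+Mac1+ cells. The WT and KO intervals overlapped in Lin- cells for both genes. In Gr1+Mac1+ cells the WT interval of Csf2rb2 overlapped those of Het and KO, whereas those of Csf2rb were apart. The fraction difference was 3.82 for Csf2rb (SE 0.19, limma adjusted p = 0.000129) and 2.88 for Csf2rb2 (SE 0.14, adjusted p = 0.00013). These are 14.1-fold and 7.34-fold. Csf2rb stood at 3.44, 3.48 and 3.50 times Csf2rb2 in Gr1+Mac1+ cells. In Lin- cells the ratios were 2.20 (1.64 to 2.96 within 2 counting SE), 2.50 (2.05 to 3.05) and 1.90 (1.46 to 2.46), all below those of the Gr1+Mac1+ fraction. The fragment number that an interval implies was whole within 0.05 in every Lin- library for Csf1r, Csf2ra, Il3ra and Flt3. For Csf2rb and Csf2rb2 it was whole in none of the 6 libraries, with 149.65 and 65.84 fragments in WT Lin- cells. It was not whole in any Lin- library for Csf3r either, with 85.08, 466.82 and 119.58 fragments, nor for Kit. Over all receptors and libraries 25 values were whole and 29 were not, so this trait does not single out the beta chains.

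Kit, the receptor for stem cell factor, lies on chromosome 5, 75574987 to 75656721, plus strand, with 21 exons. Its level was 72.6, 66.4 and 84.7 FPKM in Lin- cells and 15.0, 15.7 and 14.9 in Gr1+Mac1+ cells. The fractions did not overlap, and in Lin- cells KO was the highest and Het the lowest, with all 3 intervals apart. Kit was the higher in Lin- cells by 4.64-fold, with a log2 difference of -2.22 (SE 0.10, limma adjusted p = 0.000114). Mast cells and basophils also carry Kit or Il3ra. Of the mast cell and basophil markers, the tryptase genes Tpsb2 and Tpsab1 were listed at 0 in all 6 libraries. Others were detected: Cpa3 had an FPKM of 10.2, 9.67 and 9.04 in Lin- and 22.4, 24.1 and 30.9 in Gr1+Mac1+ cells. The 12 markers of the mast cell and basophil list summed to an FPKM of 66.4, 88.7 and 80.3 in Lin- cells. The sum was 579, 627 and 713 in Gr1+Mac1+ cells, where the basophil protease genes Prss34 and Mcpt8 led it. In WT and KO Lin- cells the largest marker was the transcription factor gene Gata2, and in Het Lin- cells it came after Prss34. Gata2 had an FPKM of 20.4, 22.79 and 25.02 in Lin- cells and was called higher there. The part of mast cells and basophils in the Kit and Il3ra levels was not tested.

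Flt3, the receptor for FLT3 ligand, lies on chromosome 5, 147330742 to 147400489, minus strand, with 24 exons. It was the 1 gene of the 9 with no call between fractions. Its FPKM was 7.85, 7.11 and 11.9 in Lin- cells and 7.10, 6.61 and 6.58 in Gr1+Mac1+ cells. KO Lin- cells alone were high, and the lowest Lin- value lay just above the highest Gr1+Mac1+ value, with overlapping intervals. The log2 difference of -0.33 (SE 0.16) missed the threshold (limma adjusted p = 0.123), and it lay close to the median of all 11489 genes tested, which was -0.33 too. After rescaling to remove that shift the difference was 0.06 (adjusted p = 0.742). Flt3 also marks dendritic cell precursors; 8 dendritic cell markers summed to an FPKM of 165.7, 179.5 and 180.6 in Lin- and 579.3, 519.3 and 579.7 in Gr1+Mac1+ cells, mostly Cst3. The antisense gene Gm26597 overlaps the Flt3 locus, with the same limit as for Il3ra.

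Epor, the erythropoietin receptor, lies on chromosome 9, 21958899 to 21963576, minus strand, with 8 exons. In Lin- cells its FPKM was 66.9, 65.9 and 62.2, with overlapping intervals. The Gr1+Mac1+ values were 10.7 (9.39 to 12.0), 5.51 (4.51 to 6.51) and 5.53 (4.43 to 6.62), so that WT was high and its interval lay apart from both others. Between fractions the log2 difference was -3.06 (SE 0.19, limma adjusted p = 0.000186), or 8.33-fold higher in Lin- cells. The Epor promoter is shown because it alone among the 7 receptors with a RefSeq promoter here holds AGATAA, a core bound by the erythroid factor GATA1, on the strand opposite to the gene. It reads TTATCT along the gene, from 54 to 49 bases before the start, in capitals. The stretch is chr9:21963577-21963826, minus strand (RefSeq, GRCm38.p6).
Epor: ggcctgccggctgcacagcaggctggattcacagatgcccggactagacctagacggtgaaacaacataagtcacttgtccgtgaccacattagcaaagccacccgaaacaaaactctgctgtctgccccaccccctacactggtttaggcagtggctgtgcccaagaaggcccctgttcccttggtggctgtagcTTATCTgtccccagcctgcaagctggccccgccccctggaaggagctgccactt

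Both strands of the promoters of Csf3r, Kit, Flt3, Epor, Il3ra, Csf2rb2 and Csf2ra were searched, from 250 bases before to 50 bases after the start. GAGGAAG was found in 4 of the 7 (Csf3r, Csf2ra, Csf2rb2 and Kit) and in 13.6% of all 32851 promoters of the table. AGATAA was found in 1 (Epor) and in 11.2% of all. TTGCNNAA, a core of the C/EBP factors, was found in 1 (Il3ra) and in 10.8% of all. GAGGAAG was thus found in Kit, which was higher in Lin- cells, and in 3 genes that were higher in Gr1+Mac1+ cells. A match describes these letters and is no evidence of binding.

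In all, 6 of the 9 receptors were higher in Gr1+Mac1+ cells and 2 in Lin- cells. The share of all 11489 genes called was 30.4% in the direction of Gr1+Mac1+ and 51.6% in that of Lin-, so most genes differed between fractions. After rescaling by the median ratio those shares were 41.1% and 36.7%, and the receptors' counts were again 6 and 2. The median log2 difference of the 9 was 2.88, beside -0.33 for all genes. With a pseudocount of 5 in place of 1, the differences of Csf3r, Csf2rb and Csf2rb2 were smaller, at 4.29, 2.99 and 1.82, and their calls held. Without the Het pool the other 8 receptors' folds moved by less than 1.5 times. The pools differ in genotype, so the error of these estimates also holds any difference in response between genotypes.

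**Figure D3:**
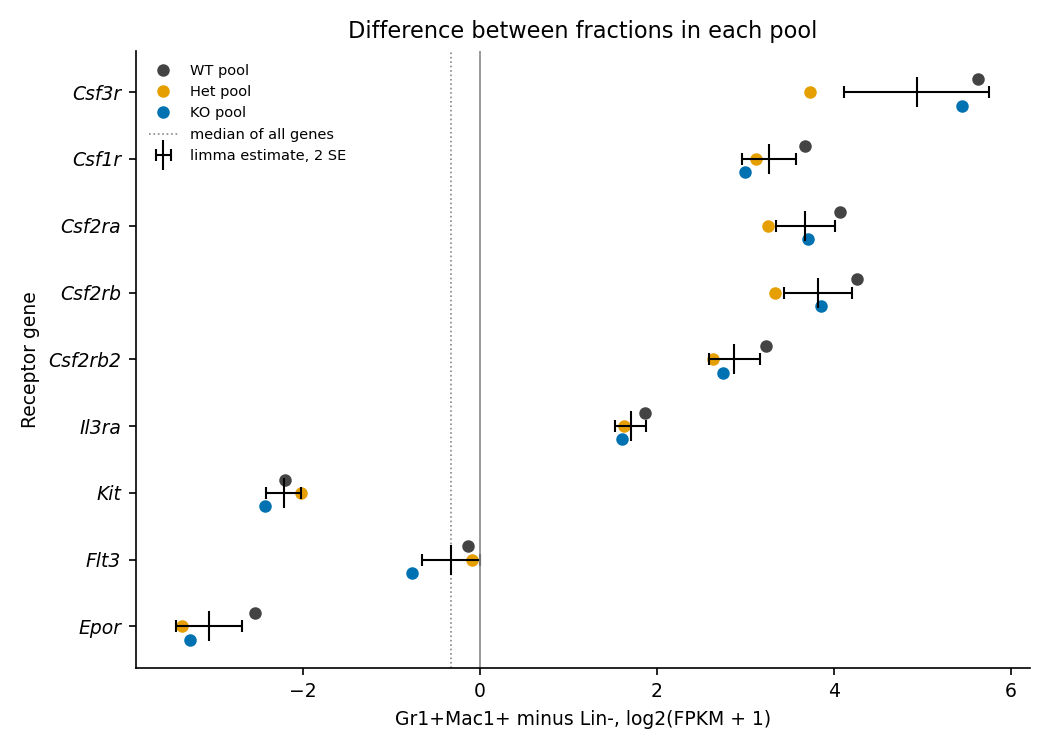
Difference between fractions for each receptor, as Gr1+Mac1+ minus Lin- on the log2(FPKM + 1) scale, with 1 point for each pool and the limma estimate with 2 SE as a black bar. The Het point of Csf3r lies to the left of the other pools, Flt3 sits next to the median of all genes at -0.33, and Kit and Epor lie on the Lin- side.

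Between genotypes there was 1 library a group, so no test was possible, and p-values are not given. The size rule asks for a 2-fold difference on the log2(FPKM + 1) scale, intervals that are apart, a status of OK and a level of 5 FPKM or more in the library where the gene is higher. The SE given with these differences is the counting SE, which rests on reading the intervals as counting error. Het and KO are both set against the same WT libraries.

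In KO against WT Lin- cells, 8 of the 9 receptors lay above WT and Epor below, with no receptor past the size rule, beside 0.182% of 8262 genes higher and 0.0484% lower. Intervals were apart for Csf1r, Flt3 and Kit, all higher in KO, among the 5 receptors that reached an FPKM of 5; of all such genes 7.02% were apart and higher and 9.36% apart and lower. Csf1r stood at 173% of WT, a log2 difference of 0.68 (SE 0.10), and it was the 1 receptor past a rule of 1.5-fold. Flt3 stood at 151% (0.54, SE 0.09) and Kit at 117% (0.22, SE 0.04). Csf3r, at 111% (0.12, SE 0.16), and Il3ra, at 133% (0.33, SE 0.21), had intervals that overlapped WT. The median of the 5 receptors that reached an FPKM of 5 was 0.39, beside -0.01 for all such genes. Over all 9 receptors, without that filter, it was 0.33. Of 12 monocyte and macrophage markers, 10 lay above WT and 2 below. Only 2 reached an FPKM of 5, Ly6c2 (22.2 in WT and 30.5 in KO, intervals apart) and Cd68 (4.02 and 5.42, overlapping), and neither was past the size rule. The 12 had a sum of 37.8 FPKM in WT Lin- cells and of 52.7 in KO Lin- cells, most of it from Ly6c2, and Fcgr4 was listed at 0 in KO and Ms4a7 in WT. Their part in the Csf1r value was not tested.

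In KO against WT Gr1+Mac1+ cells the receptors kept close to WT apart from Epor. No receptor was past the size rule, beside 0.0599% of 8353 genes higher and 0.132% lower. Intervals were apart for Epor and Csf2rb, both lower in KO, where 6.33% of all genes were apart and lower and 6.55% apart and higher. Epor stood at 51.6% of WT, a log2 difference of -0.84 (SE 0.15), and would pass at 1.5-fold. Csf2rb stood at 90.9% (-0.14, SE 0.03), and the other 7 receptors lay between 89.1% and 105% of WT. Csf3r, the leading receptor of these cells, stood at 96.5% (-0.05, SE 0.02).

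In the Het Gr1+Mac1+ library, against WT, Epor was again the receptor farthest from WT, at 51.5% (log2 difference -0.85, SE 0.14). No receptor was past the size rule, beside 0.048% of 8326 genes higher and 0.132% lower by that rule. Intervals were apart for Epor on the lower side, where 10.3% of all genes were, and for Csf1r (0.17, SE 0.03) and Csf2rb (0.13, SE 0.03) on the higher side, where 9.99% were. Red cell markers moved with Epor in both mutant libraries. All 15 of them were lower than in WT Gr1+Mac1+ cells with intervals apart, with a median log2 difference of -0.51 in Het and -0.92 in KO. They summed to an FPKM of 5191, 4608 and 3029, and none was at 0. Hbb-b1, a beta globin gene with near-identical copies, had 4311, 4013 and 2527. Klf1, an erythroid transcription factor, had 17.2, 11.8 and 7.61. Epor was about equally low in Het and KO while the markers' sum was lower in KO; the part of erythroid RNA in the Epor values was not tested.

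In Het against WT Lin- cells Csf3r stood at 452% of WT (log2 difference 1.92, SE 0.14) and Csf2rb at 252% (1.06, SE 0.11). Both were past the size rule, as were 1.7% of 8369 genes on the higher side and 0.0836% on the lower. Csf3r alone was past it at 3-fold or with a pseudocount of 5, and 4 receptors were past it at 1.5-fold, with Csf1r and Csf2ra added. Csf2ra stood at 187% (0.78, SE 0.15), Csf1r at 180% (0.73, SE 0.10) and Csf2rb2, which did not reach an FPKM of 5, at 222% (0.71, SE 0.13). All 5 had intervals apart from WT. Kit, at 91.5% (-0.13, SE 0.04), was apart on the lower side, where 7.78% of genes were, against 8.59% on the higher. Flt3, at 90.5%, and Epor, at 98.5%, had intervals that overlapped WT. Il3ra, at 135% (0.34, SE 0.21), had intervals that overlapped WT as well. Thus 5 of the 6 receptors that were higher in the Gr1+Mac1+ fraction were apart and higher in this library. With the filter of 5 FPKM that the 8.59% rests on, the count was 4. The share among all genes higher in Gr1+Mac1+ cells was not computed. The neutrophil marker S100a8 had an FPKM of 2935 in this library against 21.1 in WT. The part of neutrophil or eosinophil RNA was not tested.

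**Figure D4:**
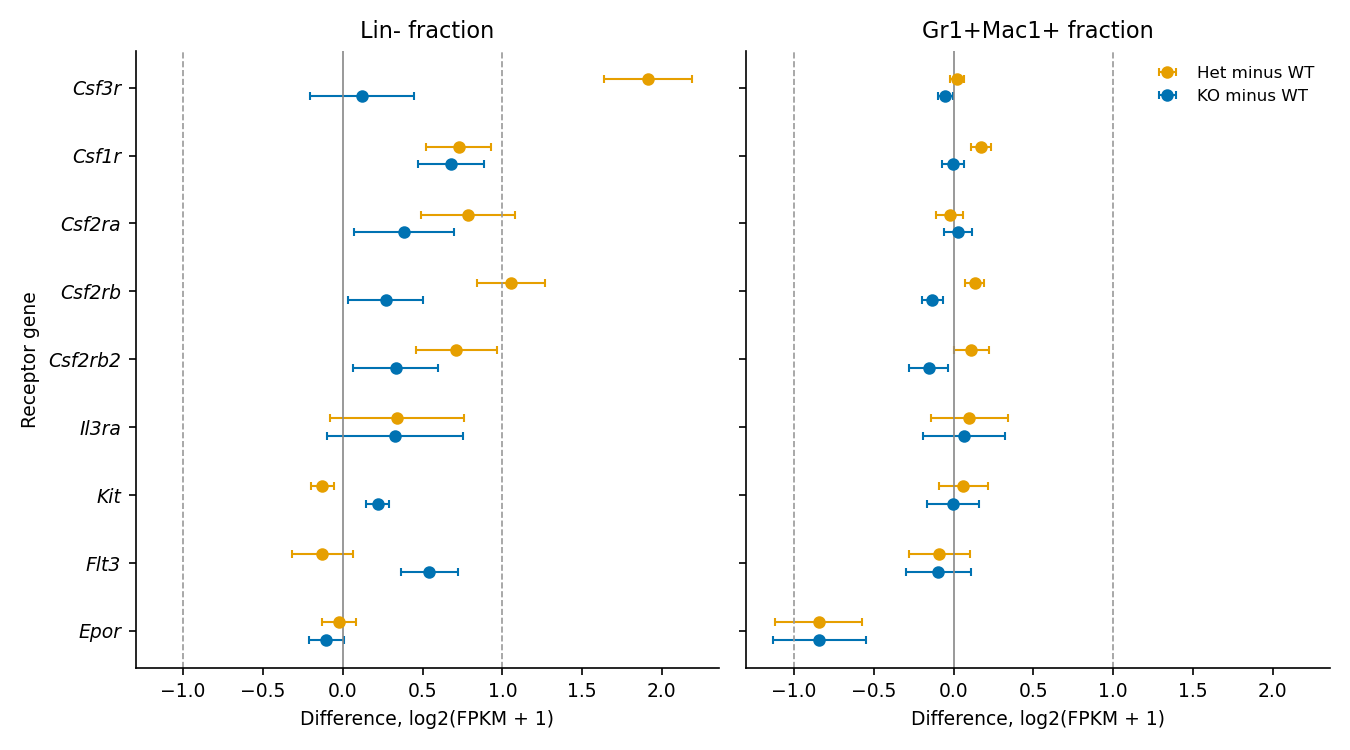
Difference of Het and KO from WT for each receptor on the log2(FPKM + 1) scale, Lin- cells at the left and Gr1+Mac1+ cells at the right, with bars of 2 counting SE and dashed lines at 2-fold. Csf3r in Het Lin- cells lies farthest from WT at 1.92, and Epor in Gr1+Mac1+ cells lies at -0.85 in Het and -0.84 in KO.

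To place the Het Lin- values, each gene's level was set as a percentage of the way from its WT Lin- to its WT Gr1+Mac1+ FPKM, a measure chosen after the values had been seen. Csf3r lay at 5.74%, Csf1r at 5.54%, Csf2ra at 4.58%, Csf2rb at 5.92%, Csf2rb2 at 7.56% and Il3ra at 9.89%, a median of 5.83%. The 13 neutrophil markers lay at 3.64% to 6.78%, with a median of 5.54%, and 11 monocyte markers had a median of 6.21%. A wider set held all 1056 genes at least 4-fold higher in WT Gr1+Mac1+ than in WT Lin- cells on the log2(FPKM + 1) scale. They also had an FPKM of at least 5 in WT Gr1+Mac1+ cells. Their median was 5.33%, and the middle of the distribution, between its quartiles, ran from 3.76% to 6.58%. Csf3r, Csf1r, Csf2ra and Csf2rb lay inside that range, and Csf2rb2 and Il3ra, which had the lowest Gr1+Mac1+ levels of these 6, lay above it. Il3ra, with a log2 difference of 1.87 between the WT libraries, was below 4-fold and is not among the 1056 genes. In KO Lin- cells the same measure gave 0.18% for Csf3r, 1.94% for Csf2ra, 1.12% for Csf2rb and 3.07% for Csf2rb2. Csf1r, at 5.07%, and Il3ra, at 9.55%, were about as far along in KO as in Het. For Il3ra this rests on 51 implied fragments in WT and 62 in KO, with overlapping intervals. In KO the neutrophil markers had a median of 0.01%, the 1056 genes 0.67% and the monocyte markers 1.95%, with the latter reaching 10.2% for Itgax.

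**Figure D5:**
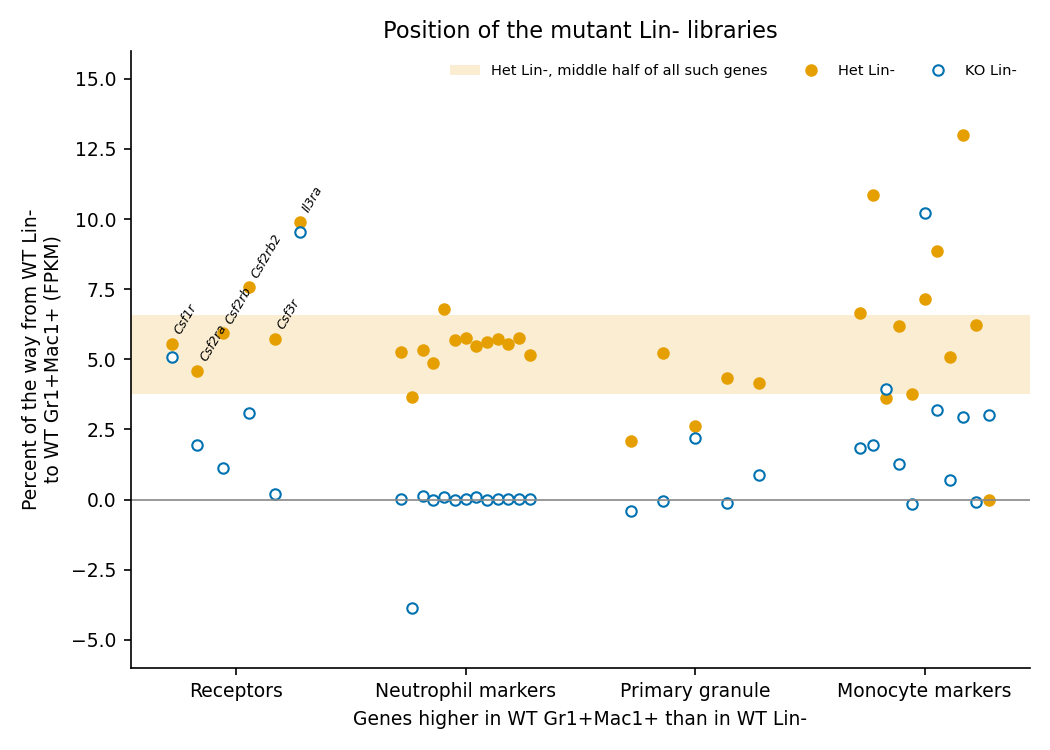
Position of the Het (filled) and KO (open) Lin- libraries on the way from WT Lin- (0) to WT Gr1+Mac1+ (100), in percent of the FPKM difference, with 1 point for each gene. Groups are the 6 receptors higher in Gr1+Mac1+ cells and the neutrophil, primary granule and monocyte markers; the band spans 3.76% to 6.58%, the quartiles of 1056 genes in Het, and the KO points of Csf1r and Il3ra lie at 5.07% and 9.55%.

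Most ligands of these receptors were at or near 0 in both fractions, apart from Csf1 and Flt3l. Il3, Il5 and Epo were listed at 0 in all 6 libraries, and Csf3, Csf2, Kitl and Il34 were at or below an FPKM of 0.389. Csf1, macrophage colony-stimulating factor, had 0.857, 0.718 and 0.705 in WT, Het and KO Lin- cells and 5.50, 5.78 and 5.50 in Gr1+Mac1+ cells. It was higher in Gr1+Mac1+ cells by 1.91 (SE 0.09, limma adjusted p = 0.000125). Flt3l, FLT3 ligand, had 13.7, 11.9 and 12.1 in Lin- and 7.15, 7.33 and 6.97 in Gr1+Mac1+ cells and was higher in Lin- cells (-0.73, SE 0.08, adjusted p = 0.000934). Thus 1 of the 2 ligands tested was called in each direction. Beside this list and those below, 30.4% of all 11489 genes were called higher in Gr1+Mac1+ and 51.6% in Lin- cells. After rescaling these shares were 41.1% and 36.7%.

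Of 24 other cytokine receptor chains tested between fractions, 19 were higher in Gr1+Mac1+ cells, 3 in Lin- cells and 2 not called, with a median of 1.28. Il1r2, a decoy receptor for interleukin-1, differed by 4.60 (SE 0.39, adjusted p = 0.000447), Tnfrsf1a, a receptor for tumour necrosis factor, by 3.39, Tnfrsf1b by 2.99 and Il6ra, the interleukin-6 receptor, by 2.97. Ifngr1, the most abundant of the list, was not called (-0.04, adjusted p = 0.634) and turned to 0.39 (adjusted p = 0.00936) after rescaling. Il5ra, the alpha chain for interleukin-5 that shares Csf2rb, was low throughout, with 1.10, 0.934 and 0.725 in Lin- and 3.69, 4.47 and 3.28 in Gr1+Mac1+ cells (1.33, adjusted p = 0.000428).

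Among the 11 Janus kinases and STAT factors, 7 were higher in Gr1+Mac1+ cells, 3 in Lin- cells and 1 was not called, with a median of 0.25. Stat5a, a factor that carries the signals of Epor, Kit and the interleukin-3 family, had an FPKM of 49.9, 47.9 and 52.3 in Lin- and 14.2, 15.9 and 13.1 in Gr1+Mac1+ cells. It was higher in Lin- cells (-1.73, SE 0.10, adjusted p = 0.000151). Stat3, the main STAT downstream of Csf3r, had 9.90, 13.1 and 10.4 in Lin- and 47.8, 50.8 and 46.2 in Gr1+Mac1+ cells, a difference of 2.03 (SE 0.08, adjusted p = 0.000109). The STAT genes therefore split by fraction, with Stat4 and Stat6 also higher in Gr1+Mac1+ cells. Jak2, a kinase bound by cytokine receptors of the set, was higher in Lin- cells (-0.50, adjusted p = 0.00742), but after rescaling its difference was -0.07 (adjusted p = 0.507), and Stat5b went from -0.34 (adjusted p = 0.00987) to 0.09 (adjusted p = 0.295). After rescaling the list gave 8 higher in Gr1+Mac1+ cells, 1 in Lin- cells and 2 not called.

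Of 25 genes that damp receptor signals, 15 were higher in Gr1+Mac1+ cells, 6 in Lin- cells and 4 not called, with a median of 0.58. Dok3, an adaptor that restrains signalling, differed by 4.29 (SE 0.31, adjusted p = 0.000281), the phosphatase Ptprc (CD45) by 3.20 and the phosphatase Ptpn6 (SHP-1) by 1.87. Socs3, the inhibitor that limits Csf3r, had an FPKM of 1.02, 1.52 and 1.09 in Lin- and 8.75, 10.02 and 7.16 in Gr1+Mac1+ cells (2.12, SE 0.10, adjusted p = 0.000121). Of 23 adaptors and kinases bound to the receptors, 16 were higher in Gr1+Mac1+ cells, 6 in Lin- cells and 1 not called, with a median of 0.70. The Src family kinase Fgr differed by 5.54, or 46.6-fold, and by 80.6-fold without the Het pool. Fes differed by 3.59 and Pik3r5 by 3.35. After rescaling, the adaptors gave 17, 2 and 4 and the damping genes 17, 3 and 5 in the same order of calls.

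Of 19 genes known to be induced through STAT5, MAPK or PI3K, 14 were higher in Gr1+Mac1+ cells, 3 in Lin- cells and 2 not called, with a median of 1.36. Osm, the cytokine oncostatin M, differed by 4.40, Id1 by 3.62, Bcl6 by 3.33, Dusp1 by 3.03 and Fos by 2.73. The 3 higher in Lin- cells were Myc (-2.37), Ccnd2 (-1.32) and the transferrin receptor gene Tfrc (-1.58). Of 17 transcription factors of the receptor genes, 7 were higher in Gr1+Mac1+ cells, 9 in Lin- cells and 1 not called, with a median of -1.10. Of all genes, 30.4% and 51.6% were called in these directions, so the 9 of 17 lie close to the share of all genes. Cebpe, a granulocyte factor, differed by 5.50, or 45.2-fold, and by 76.6-fold without the Het pool. Spi1, the gene of PU.1 and listed as Sfpi1, had an FPKM of 7.55, 15.0 and 10.4 in Lin- and 171, 187 and 182 in Gr1+Mac1+ cells (3.96, SE 0.16, adjusted p = 0.000109). Gfi1b, a repressor of erythroid and megakaryocyte cells, had 113, 104 and 124 in Lin- and 8.46, 7.49 and 6.08 in Gr1+Mac1+ cells (-3.79, SE 0.13, adjusted p = 0.000109). Gata1 (-3.00) and Tal1 (-2.72) stood on the same side as Gfi1b and Epor.

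Without the Het pool the counts higher in Gr1+Mac1+, higher in Lin- and not called were 1, 1 and 0 for the ligands, 19, 3 and 2 for the other receptor chains and 6, 3 and 2 for the Janus kinases and STAT factors. They were 14, 7 and 4 for the damping genes, 16, 5 and 2 for the adaptors, 14, 3 and 3 for the induced genes (20 then reached the filter) and 7, 9 and 1 for the transcription factors. The list medians were then 0.54, 1.25, 0.28, 0.58, 0.63, 1.24 and -1.17 in the same order. Of all 11464 genes tested without the Het pool, 3355 were called higher in Gr1+Mac1+ and 5690 in Lin- cells. The folds of Il1r2 (24.3 with and 36.1 without the Het pool), Dok3 (19.6 and 26.6) and Osm (21.1 and 27.0) moved by less than 1.5 times.

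Between genotypes few genes of these lists were past the size rule. In KO against WT none was in Lin- cells, and Klf1 (-1.08, SE 0.14) alone was in Gr1+Mac1+ cells. In Het against WT Lin- cells Cebpe (2.55), Fgr (2.40), Dok3 (1.54) and Osm (1.09) were among those higher. These 4 were also higher in the Gr1+Mac1+ fraction, and no list gene was lower. In Gr1+Mac1+ cells of Het none was past the rule.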

How the data were processed

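The deposited values are FPKM per gene locus on mm10, and per the file headers every value has bounds and a status. The submitters' processing notes name Cufflinks 2.0.2 and TopHat2 2.0.7; what each did, and with which annotation, is not stated there. Since FPKM is relative to a library's total, very abundant genes lower all others. The bounds were read as 2 standard deviations of a fragment number, which gave whole numbers within 0.05 for 60.8% to 63.3% of genes below 50 fragments.

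For the fractions, limma 3.58.1 (in R 4.3.3) was run with trend and with the pool as a block on log2(FPKM + 1) of 11489 genes whose mean FPKM was at least 1 and whose status was OK. Genes with a Benjamini-Hochberg adjusted p under 0.05 were called. The pairing comes from the labels' protocols: both fractions of a pool are from the same mice. Deviations of a pool's fractions correlated by 0.10 (WT), -0.06 (Het) and -0.01 (KO). As genotype varies between the pools, it shares the 2 residual degrees of freedom with noise. Genotypes were compared by size only. The script was tested on simulated data.

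The 9 receptors and the lists were chosen with earlier results of these data known. Of 267 list symbols, 265 matched, 5 by an older symbol. Named are all 9 receptors, up to 4 genes a list with the largest called difference and up to 2 with the highest FPKM, and list genes past the size rule; Il5ra, Jak2, Stat5b, Myc, Ccnd2, Tfrc, Gata1 and Tal1 were added after their values were seen. Some genes that the rule names are not reported here. Genes closest in pattern are the 3 with the highest Pearson correlation among those with mean FPKM of at least 5. Alternatives were other pseudocounts, level filters, rescaling, fold limits, no interval criterion, no block and leaving out a pool. Further tools were matplotlib 3.10.9, pandas 2.3.3, numpy 2.4.6 and Python 3.11.15.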

Additional observations from a re-analysis of the deposited data

How the results depend on the processing

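Between fractions the receptors' calls, 6 higher in Gr1+Mac1+ and 2 in Lin- cells, were the same in number under every alternative run. The difference of Flt3 changed sign after rescaling by the median ratio, to 0.062, as did that of Stat5b, to 0.092. That of Ifngr1 was 0.39 after rescaling and -0.098 to 0.042 when 1 pool was left out. Leaving out 1 pool gave 3144 to 3355 genes higher in Gr1+Mac1+ and 5341 to 5690 higher in Lin- cells, against 3491 and 5931 with all pools. Without the pool as a block, the pairing was ignored and 3530 and 6052 genes were called, and receptor calls stayed at 6 and 2; no other call of a receptor changed. With a mean FPKM of at least 5, 1 ligand was tested and called in place of 2. Past the size rule at 1.5-fold were 1 receptor in KO Lin- cells (Csf1r), 1 in KO Gr1+Mac1+ cells (Epor), 1 in Het Gr1+Mac1+ cells (Epor) and 4 in Het Lin- cells. In Het Lin- cells 1 receptor (Csf3r) was past it at 3-fold and 1 with a pseudocount of 5, in place of 2. With 1 library a group, differences between genotypes have no check on the spread between mice. Low levels such as those of Csf2rb2 and Il3ra in Lin- cells rest on 51 to 140 implied fragments.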

Other observations

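The genes whose pattern over the 6 libraries was closest to a receptor's were found among 7855 genes by Pearson correlation of log2(FPKM + 1). The libraries fall into the 2 fractions, which all these genes share, so the correlations are given as a description. Among the closest to Csf3r were Adam8 and Pram1, each with r = 0.9999. Adam8, a surface protease of myeloid cells, had an FPKM of 0.883, 6.48 and 1.23 in WT, Het and KO Lin- cells and 105.8, 109.9 and 105.1 in Gr1+Mac1+ cells, with Het alone high among the Lin- libraries, as for Csf3r. Closest to Csf1r and to Il3ra was Vim among others, the gene of the filament protein vimentin, with r = 0.9997 and 0.9999. Its FPKM was 45.3, 67.5 and 67.2 in Lin- and 395, 430 and 416 in Gr1+Mac1+ cells, so that Het and KO lay together above WT in the Lin- fraction.

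Closest to Csf2ra were Fmo5, Napsa and Rac2, closest to Csf2rb Pstpip2, C1rl and Krt80, and closest to Csf2rb2 Klf4, Btg2 and Mkl1, with r of at least 0.9994. Kit was closest to Zfp266, Bcs1l and Srbd1. Epor was closest to Traf4, to Aqp1, the water channel of red cells, and to Slc22a23. Aqp1 had an FPKM of 527, 535 and 515 in Lin- and 90.3, 58.3 and 53.6 in Gr1+Mac1+ cells, where WT was the highest as it was for Epor. Flt3 had the loosest neighbours, among them Gstt2 and Cdkn2aip, both with r = 0.95.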
